A study of Mus musculus with 6 samples.

Results

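Tight junctions seal the space between neighbouring endothelial cells, and 9 of their genes are described here, out of 43271 genes in the count table. They were taken by name, through the Ensembl identifiers of the table, as 4 genes of strand proteins (Cldn5, Cldn12, Ocln and Marveld2), 3 genes of junctional adhesion molecules or JAMs (F11r, Jam2 and Jam3) and 2 genes of scaffolds (Tjp1 and Cgnl1). RNA was sequenced from primary brain microvascular endothelial cells, the lining of brain capillaries, cultured from WT mice of the C57bl/6 strain. The DTG group (3 libraries) was given 5000 ng/ml of dolutegravir, a drug against HIV integrase, as confluent monolayers over 24 h, and the DMSO group (3 libraries) received the vehicle dimethyl sulfoxide for 24 h. All cultures were between passages 2 and 6 and grew on gelatin, in medium with 5% FBS, vascular endothelial growth factor, epidermal growth factor, heparin and hydrocortisone. The series title places the question in endoplasmic reticulum stress and the blood-brain barrier. Library names carry a P4 or a P5 tag that the labels do not define (P5 in DTG replicate 1, P4 in DTG replicates 2 and 3, P4 in DMSO replicate 1, and P5 in DMSO replicates 2 and 3). These names also carry an undefined number, which replicates 1 and 2 share within each group and which both replicate 3 libraries share across the groups. Separate cultures within a group are not stated, so the p-values measure the spread between these libraries, which may be technical.

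In brain endothelium the strands that close the gap between cells are built of claudins, with claudin-5 as the main one, and of occludin and its relatives with a MARVEL membrane domain. JAMs are immunoglobulin-fold adhesion proteins of the same contacts, to which leukocyte integrins also bind. Scaffold proteins such as ZO-1 and paracingulin hold strands and JAMs from the cytoplasmic side and tie them to actin. The tightness of these contacts is a defining property of the blood-brain barrier.

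Libraries held 51344169 to 56316335 counts in DTG and 41162353 to 55998253 in DMSO. All 12 endothelial markers were above 1 CPM (counts scaled to a common library total, libraries adjusted by trimmed mean of M values, TMM). Their summed level was 7597 to 7844 CPM in DTG and 11730 to 12630 CPM in DMSO libraries. Of the 12, 7 were lower in DTG and 0 higher, where 29.3% of all genes tested were lower and 27.4% higher. Vwf (950 CPM in DTG, 2958 CPM in DMSO) and Kdr (796 CPM in DTG, 1853 CPM in DMSO) differed most in CPM. Cdh5 was at 2115 CPM in DTG and 1874 CPM in DMSO. Several markers that define other brain cells were not detected. The pericyte markers Rgs5, Kcnj8 and Higd1b, the astrocyte marker Aqp4, the microglial marker P2ry12, the oligodendrocyte markers Mog and Olig2 and the epithelial marker Epcam had no count in any library. The 8 pericyte markers summed to 1.55 to 1.89 CPM in DTG and 0.668 to 1.73 CPM in DMSO, and 1 of them, Pdgfrb, was higher (109 counts in DTG and 30 in DMSO over 3 libraries each; adjusted p = 0.000594). The 5 fibroblast markers summed to 7.74 to 8.68 CPM in DTG and 6.52 to 7.44 CPM in DMSO without overlap, with 1 higher and most of the sum from Pdgfra (6.79 CPM in DTG, 6.15 CPM in DMSO). The 4 smooth muscle markers summed to 0.260 to 0.643 CPM in DTG and 0.236 to 0.415 CPM in DMSO, and the 4 oligodendrocyte markers to 1.24 to 1.41 CPM in DTG and 1.57 to 1.86 CPM in DMSO. The 9 epithelial and choroid plexus markers summed to 0.539 to 0.686 CPM in DTG and 0.576 to 0.630 CPM in DMSO. Sums of the astrocyte list (203 to 249 CPM in DTG, 56.5 to 65.3 CPM in DMSO) and of the microglia and macrophage list (120.0 to 179 CPM in DTG, 83.4 to 97.5 CPM in DMSO) were mostly Gja1 (230.3 CPM in DTG, 60.0 CPM in DMSO) and Cd68 (140.4 CPM in DTG, 91.4 CPM in DMSO). The neuron list summed to 2.21 to 6.04 CPM in DTG and 0.158 to 0.322 CPM in DMSO, mostly Tubb3. The lymphatic endothelial list, in which Prox1 and Pdpn had no count, summed to 542 to 624 CPM in DTG and 459 to 478 CPM in DMSO. Its other genes went opposite ways, Lyve1 higher (347 CPM in DTG, 194 CPM in DMSO) and Flt4 lower (224 CPM in DTG, 277 CPM in DMSO). In bulk RNA, fewer endothelial cells and less RNA per cell cannot be told apart. The part of these marker levels in the results below was not tested.

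Of the 9 genes, 6 were lower in DTG (Cldn5, F11r, Jam2, Jam3, Tjp1 and Cgnl1), 1 was higher (Cldn12), Ocln did not pass, and Marveld2 had too few counts to be tested. A gene passed at an adjusted p under 0.05 in edgeR's quasi-likelihood test, and across all 14101 genes tested 56.7% passed, 29.3% as lower and 27.4% as higher. The median log2 fold change, DTG over DMSO, was -0.31 over the 8 members tested and -0.01 over all genes tested. The libraries of the groups did not overlap in 7 of the 8 members tested, Cldn12 being the exception, where 64.2% of all genes tested did not overlap. All 7 were lower in DTG, as were 33.1% of all genes tested. By role, the median was -0.19 for the 3 strand genes tested, -0.94 for the 3 JAM genes and -0.26 for the 2 scaffold genes. All 3 JAM and both scaffold genes passed as lower, whereas the strand genes held 1 lower, 1 higher and 1 that did not pass.

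**Figure D1:**
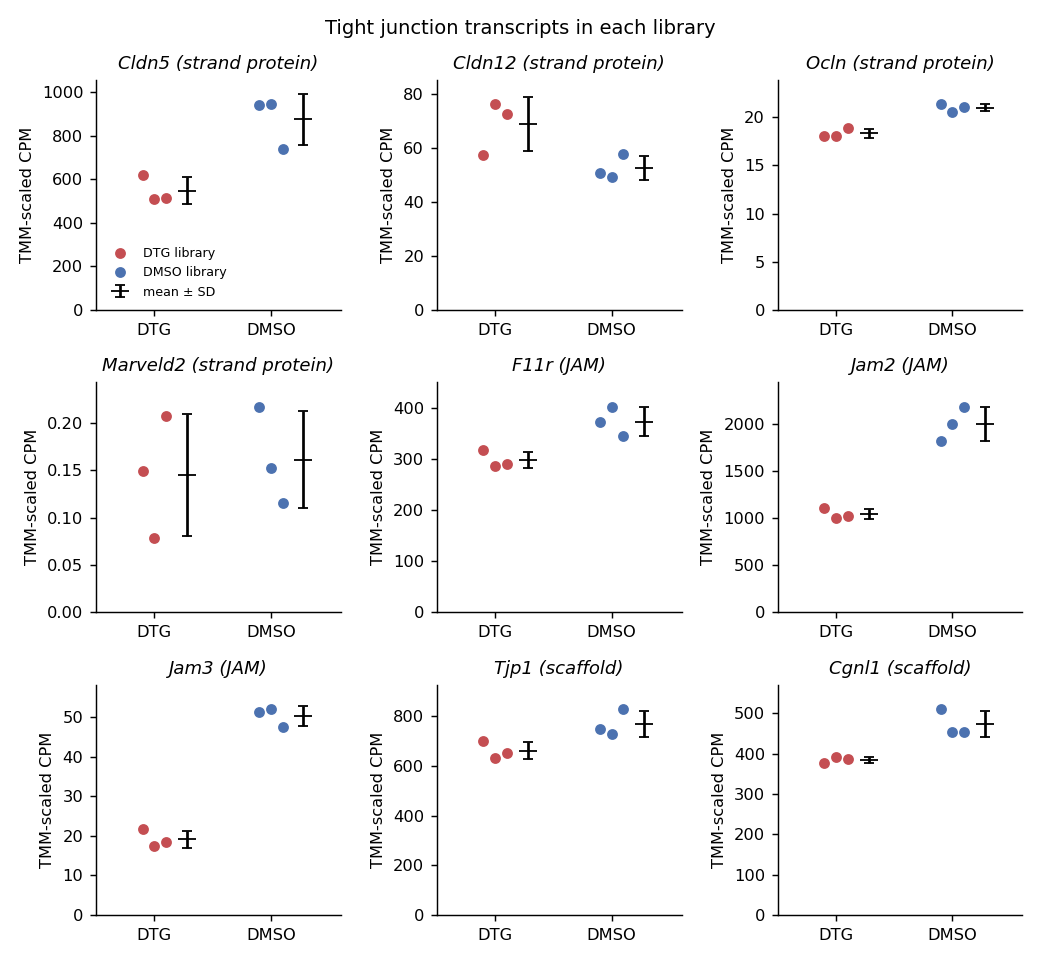
Level of each of the 9 tight junction genes (y axis, TMM-scaled CPM, starting at 0) in the 3 DTG libraries (red points, left) and the 3 DMSO libraries (blue points, right), with the mean and SD of each group in black. The Jam2 and Jam3 points of DTG lie far below those of DMSO, the Ocln, Tjp1 and Cgnl1 points lie closer, and those of Cldn12 and Marveld2 overlap between groups.

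Cldn5 encodes claudin-5, the most abundant claudin of brain endothelium. Its level was 621, 511 and 513 CPM in DTG replicates 1, 2 and 3, against 941, 944 and 740.2 CPM in DMSO replicates 1, 2 and 3. Every DTG library was below every DMSO library, with DTG replicate 1 and DMSO replicate 3 nearest to each other. The log2 fold change was -0.67 ± 0.12 (SE, adjusted p = 0.000696). Within the P4 libraries alone the difference was -0.88 and within the P5 libraries alone -0.43.

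Cldn12 encodes claudin-12, a claudin that lacks the C-terminal PDZ-binding motif through which other claudins attach to ZO proteins. It was at 57.4, 76.2 and 72.7 CPM in DTG replicates 1, 2 and 3, and at 50.6, 49.3 and 57.6 CPM in DMSO replicates 1, 2 and 3. The DTG replicate 1 value lay just below that of DMSO replicate 3, so the groups overlapped, while DTG replicates 2 and 3 stood above all DMSO libraries. The gene passed as higher (adjusted p = 0.0131), by 0.39 ± 0.11 log2 (SE). The P4 libraries alone gave 0.56 and the P5 libraries alone 0.11. This call was lost with scaling by library size alone (0.22 log2, adjusted p = 0.104) and without DMSO replicate 1 or 2 (adjusted p = 0.0509 and 0.0598), over a range of adjusted p from 0.000917 to 0.104 among all alternatives.

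Ocln encodes occludin, the first transmembrane strand protein to be named and a partner of ZO-1. Its level was 18.1, 18.1 and 18.9 CPM in the DTG libraries, against 21.3, 20.6 and 21.1 CPM in the DMSO libraries. The groups did not overlap, and the spread within each was small (0.461 CPM SD in DTG and 0.390 CPM in DMSO). The log2 fold change of -0.19 ± 0.08 (SE) missed the threshold at adjusted p = 0.0639, and passed with upper-quartile scaling and with library size alone (adjusted p = 0.0128 and 0.00349; range over alternatives 0.00349 to 0.262). The difference was -0.21 within P4 and -0.20 within P5.

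Marveld2 encodes tricellulin, the MARVEL protein of contacts where 3 cells meet. It had 8, 4 and 10 counts in the DTG libraries and 11, 9 and 5 counts in the DMSO libraries. With 22 counts in DTG and 25 in DMSO, the ratio of DTG to DMSO at the scaled library sizes was 0.883 (95% exact counting interval 0.474 to 1.63). No difference was detectable at this depth.

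Among all 31 claudin genes in the table, Cldn5 made up nearly all transcripts. Counted per length of exon sequence, so that genes of different length can be compared, Cldn5 held 96.5%, 94.7% and 94.9% of claudin transcripts in DTG replicates 1, 2 and 3, against 97.7%, 97.7% and 96.7% in DMSO replicates 1, 2 and 3. Cldn12 held 2.98%, 4.73% and 4.50% in the DTG libraries and 1.76%, 1.71% and 2.52% in the DMSO libraries. The Cldn5 share was lower in every DTG library, by 2.00 percentage points of the mean, and the Cldn12 share higher by 2.08 points (two-sided exact permutation p = 0.1 for each, the smallest that 3 libraries against 3 allow). Because Cldn5 and Cldn12 hold nearly all claudin transcripts, these 2 shares mirror each other and are not separate results. Taken from counts without division by length, the Cldn5 share was lower by a larger margin, with a difference of -5.31 points. Of the 29 other claudins 14 had no count at all, and 2 reached 1 CPM in either group.

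Those were Cldn15, which encodes a pore-forming claudin of gut epithelium, and Cldn34c1. Cldn15 fell to 2.90 ± 0.33 CPM in DTG, against 5.58 ± 0.43 CPM in DMSO (SD, n = 3 each; log2 fold change -0.94 ± 0.14 SE, adjusted p = 0.000243). Cldn34c1 was at 3.91 ± 1.08 CPM in DTG and 5.91 ± 1.21 CPM in DMSO (adjusted p = 0.0326), but its libraries overlapped between the groups. It belongs to a cluster of close copies, among which counting could split reads, although Cldn34c2 and Cldn34c4 had no count. Claudin-1 and claudin-3 transcripts, often discussed for this barrier, had 12 and 0 counts in DTG and 13 and 1 counts in DMSO.

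**Figure D2:**
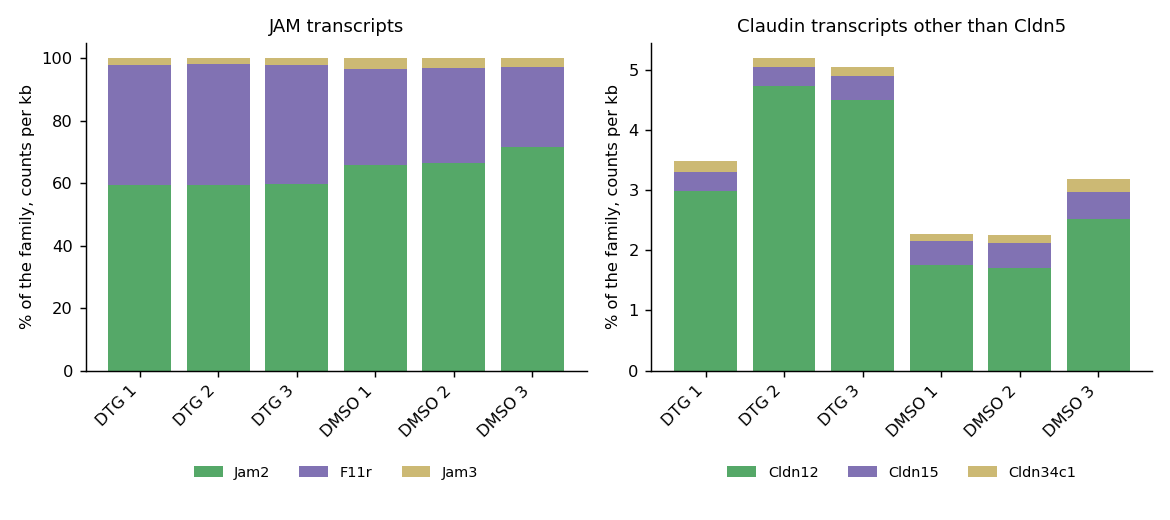
Composition of the JAM family (left) and of claudins other than Cldn5 (right) in each library, as the share of all transcripts of the family counted per kb of exon sequence (y axis, %), with the 3 DTG libraries left of the 3 DMSO libraries. The F11r part of the JAM bars is larger in each DTG library, and the Cldn12 part of the claudin bars is 2.98% to 4.73% in DTG and 1.71% to 2.52% in DMSO.

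The sequence before the transcription start is shown for Cldn5 and Cldn12, the claudins that moved in opposite directions, and for F11r, a JAM. RefSeq promoter windows (build GRCm38.p6, another build than that of the counts) were found for 7 of the 9 genes. Cldn12 had 3 windows listed, and Ocln and Marveld2 had 2 each, of which only that nearest the annotated gene start was used. The 250 bases before the start were read in each window used. They are chr16:18776597-18776846 on the plus strand for Cldn5, chr5:5514977-5515226 on the minus strand for Cldn12 and chr1:171437311-171437560 on the plus strand for F11r, each printed 5′ to 3′ toward the start. Capitals mark the CCAAT box (CCAAT), the GC box (CCGCCC), the ETS motif (CCGGAAG) and the E-box bound by ZEB and SNAIL factors (CACCTG), on either strand.
Cldn5: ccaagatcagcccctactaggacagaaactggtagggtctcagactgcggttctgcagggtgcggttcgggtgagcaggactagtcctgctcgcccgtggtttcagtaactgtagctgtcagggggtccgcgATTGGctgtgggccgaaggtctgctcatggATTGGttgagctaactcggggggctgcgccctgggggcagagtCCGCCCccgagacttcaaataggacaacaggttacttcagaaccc
Cldn12: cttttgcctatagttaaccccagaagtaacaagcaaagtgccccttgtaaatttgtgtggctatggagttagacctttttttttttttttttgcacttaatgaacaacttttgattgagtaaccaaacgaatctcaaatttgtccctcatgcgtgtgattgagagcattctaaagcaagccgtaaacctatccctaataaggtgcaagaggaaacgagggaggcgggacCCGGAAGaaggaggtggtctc
F11r: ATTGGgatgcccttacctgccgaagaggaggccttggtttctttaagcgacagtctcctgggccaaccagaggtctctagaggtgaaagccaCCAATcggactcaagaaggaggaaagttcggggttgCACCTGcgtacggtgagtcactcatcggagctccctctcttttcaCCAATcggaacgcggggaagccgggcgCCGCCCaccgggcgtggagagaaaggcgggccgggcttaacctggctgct

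The Cldn5 window held 2 CCAAT boxes, which start 118 and 88 bases before the start, and a GC box at 45 bases. The Cldn12 window held neither, and had an ETS motif at 21 bases. The F11r window held 3 CCAAT boxes, 1 GC box and 1 E-box. Of all 27025 genes with a window, 34.5% had a CCAAT box, 32.9% a GC box, 7.05% this ETS motif and 17.1% this E-box, and among the 7 members a GC box was found in 6. The shares of all genes rest on the first window listed for each gene, a different choice from that for the members. The ER stress element ERSE (CCAAT and CCACG set apart by a fixed spacer, so that it includes a CCAAT box), the UPRE core (TGACGTG), the C/EBP-ATF motif (TGATGNAA), the FOXO motif (GTAAACA), the SOX motif (ACAAAG) and the TCF/LEF motif (CTTTGATC) were searched likewise and had no match in the 7 windows, which says only that these letters are not there. These are present in 0.12%, 1.61%, 3.53%, 3.09%, 16.5% and 0.79% of all windows, in the same order.

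Jam2 and Jam3, which encode JAM-B and JAM-C, the pair that binds each other across cell contacts, showed the largest decreases of the 9 genes. Jam2 was at 1106, 1007 and 1026 CPM in DTG replicates 1, 2 and 3, against 1824, 2005 and 2188 CPM in DMSO replicates 1, 2 and 3. The DTG libraries lay close together, and the lowest DMSO library was well above the highest of them. The log2 fold change was -0.94 ± 0.09 (SE, adjusted p = 1.61e-05), or 1.92-fold lower. The P4 libraries gave -0.84 and the P5 libraries -0.92.

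Jam3 was at 21.6, 17.4 and 18.4 CPM in the DTG libraries, against 51.3, 51.9 and 47.4 CPM in the DMSO libraries. No DTG library reached a level near that of any DMSO library. Jam3 fell by 1.39 ± 0.10 on the log2 scale (SE, adjusted p = 2.33e-06), or 2.63-fold. The P4 libraries gave -1.52 and the P5 libraries -1.20. A predicted gene on the opposite strand, Gm48796, overlaps 1159 of the 3200 exon bases of Jam3, and had 31, 19 and 22 counts in DTG and 36, 44 and 27 counts in DMSO libraries. The strand setting of the counting is not given in the sources used here, so reads of that overlap cannot be told apart.

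F11r encodes JAM-A, which binds its own kind across the contact and is the ligand of the leukocyte integrin LFA-1. It was at 317, 287 and 291 CPM in the DTG libraries, against 372, 402 and 345 CPM in the DMSO libraries. The groups did not overlap, but the gap between them was smaller than for Jam2 and Jam3. The log2 fold change was -0.32 ± 0.08 (SE, adjusted p = 0.00699). The P4 libraries gave -0.37 and the P5 libraries -0.23.

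The makeup of the JAM family was compared next. Per length, F11r held 38.5%, 38.5% and 38.4% of JAM transcripts in DTG replicates 1, 2 and 3, against 30.5%, 30.2% and 25.6% in DMSO replicates 1, 2 and 3. Jam2 held 59.3%, 59.6% and 59.6% in the DTG libraries and 66.0%, 66.5% and 71.5% in the DMSO libraries. Jam3 held 2.19%, 1.94% and 2.02% in the DTG libraries and 3.50%, 3.26% and 2.93% in the DMSO libraries. The Jam3 share differed by -1.18 points per length, and by -0.68 points from counts without division by length. None of the shares per length overlapped between groups (two-sided exact permutation p = 0.1 for each), and F11r and Jam2 shares spread less among DTG than among DMSO libraries (SD 0.0832 and 0.170 points in DTG, 2.77 and 3.04 points in DMSO). The 3 shares add up to the whole family, so they are not separate results.

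Tjp1 encodes ZO-1, the scaffold that binds claudins, occludin, JAM-A and actin. Its level was 699.9, 633 and 649.7 CPM in the DTG libraries, against 748, 728 and 827 CPM in the DMSO libraries. The DTG libraries were lower without overlap, with DTG replicate 1 and DMSO replicate 2 close to each other. The change of -0.22 ± 0.08 log2 (SE) just passed (adjusted p = 0.0448). The call was lost with RLE scaling, with DESeq2, with no count filter, with the replicate block, with the P tag in the fit, and on leaving out DTG replicate 2 or 3 or DMSO replicate 1 or 3 (adjusted p = 0.239, 0.212, 0.0719 and 0.0875 for these 4 libraries), with a range over all alternatives from 0.00274 to 0.239. The difference was -0.22 within P4 and -0.15 within P5.

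Cgnl1 encodes paracingulin, a relative of the junction protein cingulin. It was at 377, 392 and 386 CPM in the DTG libraries, against 510.2, 453 and 455 CPM in the DMSO libraries. All DTG libraries lay below all DMSO libraries. The log2 fold change was -0.30 ± 0.08 (SE, adjusted p = 0.00762). The P4 libraries gave -0.39 and the P5 libraries -0.27. Without DTG replicate 3 the adjusted p was 0.0517, against a range over alternatives of 0.00051 to 0.0517.

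**Figure D3:**
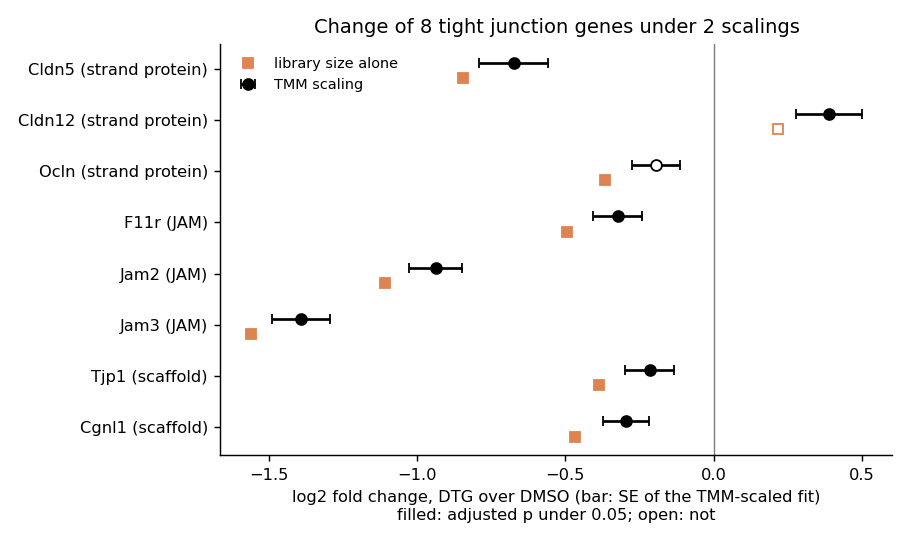
Log2 fold change, DTG over DMSO (x axis), of the 8 tight junction genes tested, with TMM scaling (black circles, bars are SE) and with library size alone (orange squares); filled symbols passed at an adjusted p under 0.05. Jam3, Jam2 and Cldn5 lie farthest to the left, Cldn12 is the single gene to the right of 0, and library-size scaling moves all 8 to the left, by 0.17 log2 in the median of all genes.

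Scaling matters for the small changes. Relative to TMM, library size alone moved the median of all genes by -0.17 log2, under which 7 of the 8 members tested passed as lower and Cldn12 did not pass as higher. With upper-quartile factors 38.2% of all calls were higher, with library size alone 30.7%, and with TMM 48.3%. P5 of DTG and P4 of DMSO are 1 library each, so a test across the tags can miss differences. The interaction of treatment and P tag, whether the DTG difference differed between P4 and P5 libraries, was tested in such a fit. It passed for none of the 8 members, and for 0.0% of all genes, in edgeR's quasi-likelihood test, with adjusted p from 0.473 to 0.998, and unadjusted p was under 0.05 for Cldn12 alone (0.0277; 0.0667 for Cldn5 and 0.0744 for Jam3).

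Ratios between genes within a library do not depend on scaling, and were used to set strand proteins, JAMs and scaffolds against each other. The Jam3 to F11r ratio had log2 values of -3.87, -4.05 and -3.98 in DTG replicates 1, 2 and 3, against -2.86, -2.95 and -2.86 in DMSO replicates 1, 2 and 3. It was 2.11-fold lower in DTG, without overlap. The Jam2 to F11r ratio was 1.80, 1.81 and 1.82 log2 in the DTG libraries, against 2.29, 2.32 and 2.66 log2 in the DMSO libraries, a difference of -0.61. The 2 JAM genes Jam2 and Jam3 were thus lower relative to the third in each DTG library.

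Within the strand genes, the Cldn12 to Cldn5 ratio was -3.44, -2.75 and -2.82 log2 in the DTG libraries, against -4.22, -4.26 and -3.68 log2 in the DMSO libraries, or 2.07-fold higher in DTG (1.44 log2 within P4 and 0.53 within P5). The Ocln to Cldn5 ratio was higher by 0.48 log2, at -4.90 ± 0.18 in DTG and -5.37 ± 0.21 in DMSO (SD, n = 3 each). Its lowest DTG value (-5.10) lay just above the highest DMSO value (-5.13). Marveld2 to Ocln, which rests on 4 to 11 counts per library, overlapped between the groups.

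Between strand and scaffold, the Cldn5 to Tjp1 ratio was -0.17, -0.31 and -0.34 log2 in the DTG libraries, against 0.33, 0.38 and -0.16 log2 in the DMSO libraries. DTG replicate 1 and DMSO replicate 3 differed by very little here, and the mean difference was -0.46 log2. The scaffold ratio Cgnl1 to Tjp1 overlapped, at -0.78 ± 0.10 in DTG and -0.70 ± 0.16 in DMSO (SD over 3 libraries each), with p = 0.4 in the exact permutation test. Over these 7 ratios the exact permutation p was 0.1 for 5 and the adjusted value was 0.14, and 0.1 is the smallest p that this test can give with 3 libraries against 3.

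**Figure D4:**
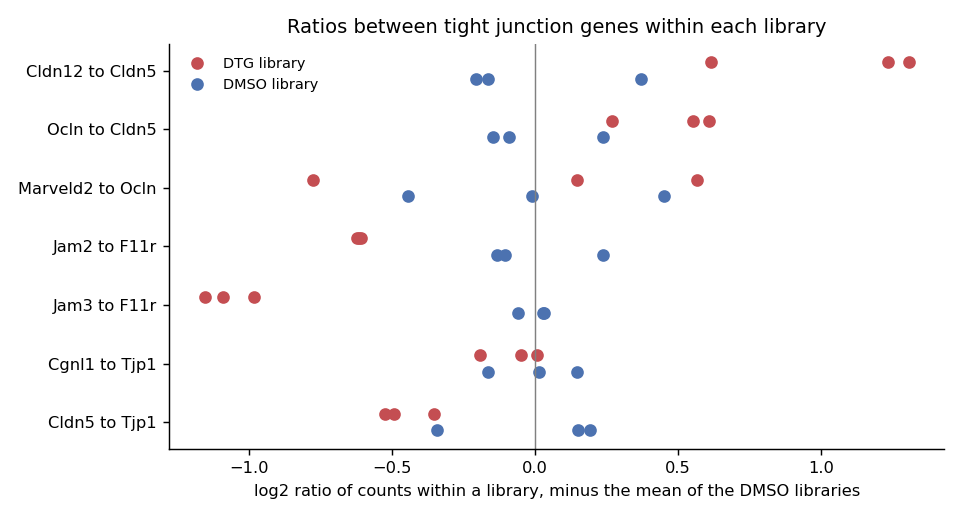
Log2 ratio of counts between pairs of tight junction genes in each library (x axis, minus the mean of the DMSO libraries), with DTG libraries in red above DMSO libraries in blue for each of 7 ratios. DTG points stand right of all DMSO points for Cldn12 to Cldn5 and left of them for Jam2 and Jam3 to F11r, and the groups mix for Marveld2 to Ocln and Cgnl1 to Tjp1.

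Per kb of exon sequence, the order of levels in DTG was Cldn5 (387 CPM per kb), Jam2 (173), F11r (112), Tjp1 (84.6), Cgnl1 (49.1), Cldn12 (16.3), Jam3 (5.98), Ocln (4.34) and Marveld2 (0.0428). In DMSO it was Cldn5 (618 CPM per kb), Jam2 (332), F11r (140.0), Tjp1 (98.3), Cgnl1 (60.3), Jam3 (15.7), Cldn12 (12.4), Ocln (4.97) and Marveld2 (0.0477). Cldn12 and Jam3 thus held opposite ranks in the groups. In both groups each of the 8 pairs of neighbours was apart in all libraries. Summed per kb, the strand genes were at 408 ± 42.3 CPM per kb in DTG and 636 ± 81.5 in DMSO, the JAM genes at 291 ± 15.4 in DTG and 487 ± 26.3 in DMSO, and the scaffold genes at 134 ± 3.50 in DTG and 159 ± 6.81 in DMSO (SD, n = 3 each). Cldn5 made up most of the strand sum, at 387 CPM per kb in DTG and 618 in DMSO. Cldn12 went the other way, at 16.3 CPM per kb in DTG and 12.4 in DMSO. Lengths are of all annotated exons of a gene, which may be longer than the isoform these cells use.

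Over the 6 libraries, the genes with the pattern most like a member were found by the root-mean-square difference of log2 CPM, each gene centred on its own mean, among 9919 genes with at least 5 CPM on average. For Cldn5 they were Bckdha, Lfng and Mfsd13a (0.03, 0.04 and 0.04 log2). For Cldn12 they were Oxr1, Thap12 and Dcaf10 (0.04 for each), and for Jam3 Cish, Tapbp and Loxl3 (0.04 for each). Lfng, a glycosyltransferase that modifies Notch receptors, was at 27.1 CPM in DTG and 42.1 CPM in DMSO. Tapbp, the tapasin of MHC class I loading, was at 113 CPM in DTG and 292 CPM in DMSO. The like changes of these genes follow from how they were picked, and shared regulation was not tested.

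The remaining tight junction genes were described from lists of further strand, JAM-family and scaffold genes. Of 70 such genes 29 could be tested, of which 10 were lower and 3 higher in DTG (29.3% and 27.4% of all genes), and their median log2 change was -0.15. Under scaling by library size alone 15 were lower and 3 higher, without DTG replicate 3 the count lower was 6, and without DTG replicate 1 or DMSO replicate 1 the count higher was 5. Among 6 tested strand, MARVEL and angulin genes 4 were lower and 1 higher, and 2 were lower without DTG replicate 2 or 3, without DMSO replicate 2 or 3, and with the replicate block. Marveld1, a MARVEL-domain relative of occludin, fell to 126 ± 8.92 CPM in DTG, against 219 ± 8.31 CPM in DMSO (SD, n = 3 each; log2 fold change -0.80 ± 0.08 SE, adjusted p = 1.84e-05). Cldnd1, a claudin-domain gene outside the claudin family proper, rose by 0.43 ± 0.08 log2 (SE, adjusted p = 0.00101) to 46.7 ± 1.70 CPM in DTG, against 34.7 ± 2.00 CPM in DMSO.

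Of 3 tested JAM-family genes 1 passed, Gpa33, which is named here after its values were seen and is below 1 CPM in both groups. That call was lost without DMSO replicate 2 and with DESeq2, under which 0 of 5 genes were lower and 1 was higher. Esam, an endothelial adhesion molecule of the JAM family's wider group, was at 563 ± 4.56 CPM in DTG and 543 ± 33.9 CPM in DMSO (adjusted p = 0.574) and is likewise named after its values were seen. Its log2 fold change was 0.05 ± 0.08 (SE).

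Of 20 tested scaffold and polarity genes 5 were lower and 2 higher, with a median log2 change of -0.05. With library size alone 10 were lower and 2 higher, 3 were lower without DTG replicate 3, and 4 were higher without DTG replicate 1 or DMSO replicate 1. Magi3 and Mpdz, large proteins with many PDZ domains, fell by 0.40 ± 0.09 and 0.39 ± 0.08 log2 (SE, adjusted p = 0.00329 and 0.00312). Pard6a, of the PAR polarity complex, rose by 0.65 ± 0.12 log2 (SE, adjusted p = 0.000988). Ybx3, the Y-box factor ZONAB that ZO-1 can hold at the junction, rose to 288 ± 35.8 CPM in DTG, against 144 ± 6.50 CPM in DMSO (SD, n = 3 each; log2 fold change 1.00 ± 0.10 SE, adjusted p = 1.80e-05).

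**Figure D5:**
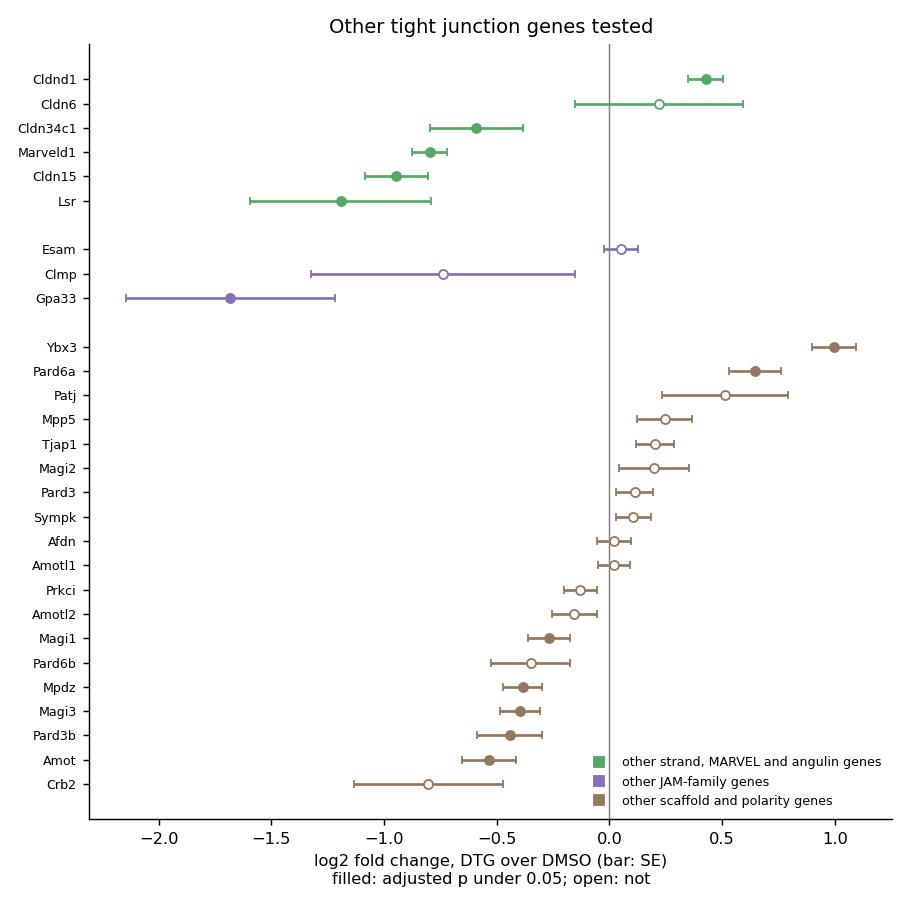
Log2 fold change, DTG over DMSO (x axis, bars are SE), of 28 of the further tight junction genes tested, grouped as strand, MARVEL and angulin genes (green), JAM-family genes (purple) and scaffold and polarity genes (brown); filled points passed at an adjusted p under 0.05. Filled points lie on both sides of 0, with 10 to the left and 3 to the right, and Ybx3 is the farthest to the right.

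Regulators of junction turnover and actomyosin tension held 10 genes higher and 9 lower of 28 tested, where 27.4% of all genes were higher and 29.3% lower (3 list genes higher and 10 lower with library size alone, and 6 higher with upper-quartile factors). On leaving out 1 library, 7 to 12 were higher and 6 to 10 lower, with the lower count of 6 without DTG replicate 1 or 3 or DMSO replicate 1. Mylk, the kinase that drives myosin contraction at junctions, fell to 138 ± 3.05 CPM in DTG, against 298 ± 7.73 CPM in DMSO (SD, n = 3 each; log2 fold change -1.11 ± 0.07 SE, adjusted p = 1.10e-06). Cav1, of the caveolae that take up occludin, fell by 1.59 ± 0.12 log2 (SE, adjusted p = 3.18e-06), and Rab13, a GTPase of junction trafficking, by 0.76 ± 0.11 log2 (SE, adjusted p = 0.000174). Rap1b, a GTPase that tightens endothelial contacts, rose to 385 ± 4.75 CPM in DTG, against 234 ± 39.4 CPM in DMSO (SD, n = 3 each; adjusted p = 0.000362).

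Of 25 tested transcription factors reported to act on junction genes, 5 were higher and 10 lower, beside 27.4% and 29.3% of all genes. Sox18, Fli1 and Tcf7l1 fell by 0.93 ± 0.10, 0.91 ± 0.08 and 1.20 ± 0.08 log2 (SE, adjusted p = 2.86e-05, 1.25e-05 and 2.35e-06). Snai1, a repressor of junction genes in epithelium, rose by 0.68 ± 0.10 log2 (SE, adjusted p = 0.000249) to 25.8 ± 1.69 CPM in DTG, against 16.0 ± 1.53 CPM in DMSO (SD, n = 3 each). The count higher was 9 without DTG replicate 1, and 8 with RLE scaling and with DESeq2. The list's median of -0.05 log2 turned to 0.10 without DMSO replicate 1.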

How the data were processed

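A single table deposited by the authors holds whole-number counts for each Ensembl gene, not normalized. Per the submitters' processing notes the build was GRCm39, and per the labels' protocols 2 µg of TRIzol RNA per library entered a stranded poly(A) kit; the aligner, the counter and its strand setting: not given in the sources used here. Of 43271 identifiers 89.2% matched a symbol. Genes kept by filterByExpr (14101) were scaled by TMM and tested with edgeR 4.0.16 in R 4.3.3 (quasi-likelihood F-test, robust, group as the only term, Benjamini-Hochberg over all genes tested, threshold 0.05). SE was derived from the log2 fold change and its F statistic. Ratios and shares used two-sided exact permutation tests over libraries (scipy 1.17.1). Lengths are exon unions of GENCODE M21, matched by gene identifier. Counting intervals cover counting error only. The edgeR steps were run on simulated counts in which a small part of the genes was changed, up or down at random. Most genes passed in the real data, so this run cannot judge the scaling. Alternatives were DESeq2 1.42.0, limma-voom (limma 3.58.1), RLE, upper-quartile and library-size scaling, 2 count filters, no robust estimation, a replicate block, the P tag, an adjusted p under 0.01, and leaving out each library. The members and lists were chosen with earlier results of these data known. Named from each list were the 4 smallest p-values among genes that passed with at least 1 CPM, and claudins with at least 1 CPM; the CCAAT, ETS and GC motifs were added after the windows were seen. Replicates of a group differed beyond sampling noise, but not evenly. DTG replicates 2 and 3, both P4, differed least (chi-square of counts per gene 8.65). DMSO replicates 1 and 2, of different P tags, came next (20.6), and all other pairs were at 40.2 to 57.1. For DTG replicate 1 the table's header reads DIG, which matches the description of that sample alone. A planned share and 1 gene of the lists, which stays in the counts, are not reported here.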

Additional observations from a re-analysis of the deposited data

How the results depend on the processing

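Each tested member was refitted under 16 alternatives. Cldn5, F11r, Jam2 and Jam3 stayed lower and past the threshold in all 16, with log2 ranges of -0.84 to -0.60, -0.49 to -0.27, -1.11 to -0.87 and -1.56 to -1.30. Tjp1 (-0.22 log2) missed the threshold with RLE scaling (-0.20, adjusted p = 0.0629), DESeq2 (-0.19, 0.0547), no count filter (-0.21, 0.0721) and the P tag as a term (-0.19, 0.0746), and ranged from -0.25 to -0.16 when 1 library was left out. Cldn12 was at 0.22 with library size alone and 0.34 to 0.54 with 1 library left out, and Ocln at -0.29 with upper-quartile factors and -0.37 with library size alone. Cgnl1 ranged from -0.33 to -0.24 with 1 library left out. The cause of these lost or gained calls was not tested. Cldn12 being the 1 member higher, that count was 0 with library size alone and at an adjusted p under 0.01, 0 to 1 with 1 library left out, and 1 with DESeq2 and limma-voom; members lower numbered 4 to 7. Other tight junction genes higher numbered 5 with DESeq2 and 3 to 5 with 1 library left out, and those lower 5 at an adjusted p under 0.01 and 6 to 8 with 1 library left out, against 3 and 10. All genes higher numbered 2536 with library size alone, against 3860.

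With the replicate number as a block (replicate block), Tjp1 was at -0.21 log2 and lost its call (adjusted p = 0.0952), and no other member changed its call. The labels do not say that these numbers mark a shared culture or day, although the replicate 3 libraries also share a number in their library names. Same-numbered libraries had correlations of their deviations of -0.27, 0.05 and -0.04 across genes, and libraries of DTG replicates 1, 2 and 3 correlated best with another number. Each of these best matches shared the P tag (0.175, 0.147 and 0.193 for DTG replicates 1, 2 and 3). Across the groups, libraries with the same P tag correlated at 0.084 to 0.193, and those with different tags at -0.271 to 0.045.

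The Marveld2 to Ocln difference ranged from -0.31 to 0.36 log2 with 1 library left out, so it changed sign; the other 6 ratios and 2 shares kept their sign, but without division by length the Cldn5 share difference was -5.31 points and that of Jam3 -0.68 points. Marveld2 (4 to 11 counts per library) was the only member with too few counts to be tested. Whether depth limits the others, such as Ocln with 910 to 1220 counts per library, was not tested.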
